A study of Mus musculus with 32 samples.

Results

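The age comparison described here sets 5 libraries from 18-month-old male mice against 3 libraries from 3-month-old males, 8 of the 32 deposited libraries, chosen by the sex and age in their labels. All mice carried Chat-Cre and RiboTag, at both ages. In these animals Cre, driven by the promoter of choline acetyltransferase (Chat), switches on an HA-tagged copy of the ribosomal protein Rpl22 in cholinergic cells, and RNA bound to the tagged ribosomes was precipitated from whole spinal cord and sequenced, on a mixed genetic background. Motor neurons make up a large part of the cholinergic cells of the cord, but preganglionic neurons and cholinergic interneurons carry the tag too, and unbound RNA of other cells can stay on the beads. The question was which genes of the motor neuron translatome differ between young adult and old males.

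Spinal motor neurons carry commands from the cord to muscle, release acetylcholine, and keep very long axons filled with neurofilaments. They receive excitatory, inhibitory and serotonergic inputs, and they live beside astrocytes and microglia, the resident immune cells of the cord. In old animals motor neurons are known to lose synapses while most of their cell bodies remain.

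The 8 libraries held between 16873517 and 27359621 counts. Values below are counts normalized for library size and composition (TMM) and brought to a common depth. The 17481 genes whose mean count reached 5 were tested, and a gene is called a differentially expressed gene (DEG) at a Benjamini-Hochberg adjusted p under 0.05 from edgeR's quasi-likelihood test. In bulk RNA of this kind fewer cells of a type and less RNA per cell cannot be told apart. The Y-linked genes Ddx3y, Kdm5d, Eif2s3y and Uty were present in all 8 libraries, as the labels ask. Xist, expressed from the inactive X chromosome of females, had normalized counts of 61.9 and 61.1 in 18-month replicates 1 and 3 and between 0 and 5.65 in the other 6 libraries.

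Some 18-month libraries stood apart from the rest, and every result below was read with this in view. In replicates 1 and 3, which are also the only libraries of the 8 in the lower range of totals, 28 genes with at least 50 normalized counts were at least 5-fold above the highest of the other 6 libraries. Among them were genes of bone and marrow (Col1a1, Ibsp, Acp5, Ctsk, Mmp13 and Mpo), the cartilage collagen Col2a1 and Xist. The summed chondrocyte markers did not set this pair apart, at 1231 and 1688, with 1147, 1335 and 874 in replicates 2, 4 and 5. In replicate 2, 11 genes were at least 3-fold above each of the other 7 libraries, and they included the microglial genes C1qa, C1qb, C1qc, Tmem119 and Trem2. In replicate 4, 132 genes were at least 3-fold below each of the other libraries and 14 were at least 3-fold above, and Chat was among the low ones. In replicate 5, 10 genes were at least 3-fold above, of which 5 were named Pcdhga, gamma protocadherins that share their last exons, so that their counts are uncertain. These genes were picked after their values were seen. Results that changed most without replicates 1 and 3 are also given without them, and because those libraries share a low total and the bone RNA, the effects of the total and of the bone RNA cannot be told apart.

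**Figure D1:**
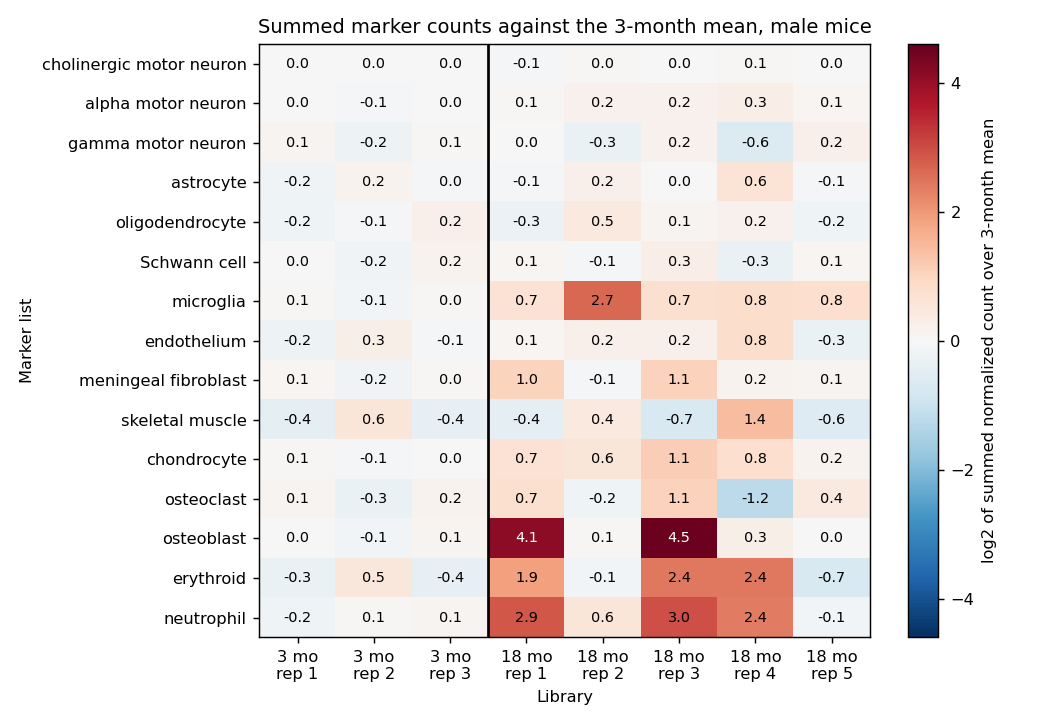
Each cell gives the log2 of the summed normalized count of a marker list (rows) in a library (columns) over the mean of the 3-month libraries, for the 3 libraries of 3 months and the 5 of 18 months. The osteoblast sum was 13693 and 17930 in 18-month replicates 1 and 3 against at most 946 in the other 6 libraries, and the microglial sum was 4176 in replicate 2. The sum of cholinergic motor neuron markers lay between 794504 and 870240 in all 8. Most of it comes from the neurofilament genes Nefl, Nefm and Nefh, so it does not show the level of Chat or Slc18a3, which were lowest in replicate 4.

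Motor neuron identity did not separate the ages. The cholinergic motor neuron list held 15 genes, all tested, and none was a DEG, with a median log2 fold change of -0.04 beside 0.01 over all genes tested. No member had an unadjusted p under 0.05, a mark that 6.8% of all genes passed. Chat, the enzyme that makes acetylcholine, had 1401, 605 and 1148 normalized counts at 3 months and 1269, 651, 1229, 201 and 1591 at 18 months, so that the groups overlapped and replicate 4 was the lowest of the 8. Slc18a3, which loads acetylcholine into vesicles, had 17086, 12316 and 17473 at 3 months and 16462, 12898, 17907, 5427 and 20517 at 18 months. Replicate 4 was again the lowest, while its Prph, a peripheral intermediate filament of motor neurons, was the highest of the 8 at 49911, the other libraries lying between 31104 and 38091.

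The transporter Slc5a7, which takes choline back up, had a log2 fold change of -0.02 (SE 0.17). The neurofilament genes, whose products fill the axon, had log2 fold changes of -0.09 (SE 0.13) for Nefl, 0.03 (SE 0.09) for Nefm and 0.11 (SE 0.09) for Nefh, all with overlapping groups. The transcription factors that specify motor neurons had log2 fold changes of -0.39 (SE 0.20) for Lhx3, -0.27 (SE 0.17) for Isl1, -0.05 (SE 0.10) for Isl2 and -0.07 (SE 0.21) for Mnx1. Ache, which breaks down acetylcholine, had -0.02 (SE 0.15), the bile-acid-family carrier Slc10a4 -0.04 (SE 0.09), the peptidase Ecel1 0.36 (SE 0.23) and the neuropeptide gene Calca 0.87 (SE 0.65). Calca was 26250 in replicate 2 and 36878 in replicate 4 against 7661 to 11967 in the other 6 libraries.

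Among the subtypes, the 8 genes of alpha motor neurons, which drive muscle contraction, had a median log2 fold change of 0.07, and the 7 genes of gamma motor neurons, which set the tension of muscle spindles, had a median of -0.03. None was a DEG. Spp1, osteopontin, which is abundant in alpha motor neurons, had 16597, 16490 and 16259 at 3 months and 19921, 25500, 20093, 30926 and 17992 at 18 months. Every 18-month library lay above the 3-month libraries, but the log2 fold change of 0.48 (SE 0.25) had an adjusted p of 0.783. The hyaluronan receptor Cd44 had 37.0, 36.7 and 35.6 at 3 months and 134, 49.8, 114, 75.5 and 39.7 at 18 months, highest in replicates 1 and 3.

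Between 3 and 18 months 6 of the 17481 genes were DEGs, or 0.0343%. Transgelin 2 (Tagln2), the Wnt antagonist Sfrp1 and the processed pseudogene Gm12345 fell, and the protocadherins Pcdhb3 and Pcdhb10 and the secreted matrix protein Adamtsl5 rose, 3 genes or 0.0172% in each direction. For all 6 the 2 groups did not overlap, which was so for 6.2% of all genes tested (3.38% higher and 2.83% lower at 18 months). An unadjusted p under 0.05 was reached by 756 genes that were higher at 18 months (4.32%) and by 433 that were lower (2.48%).

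**Figure D2:**
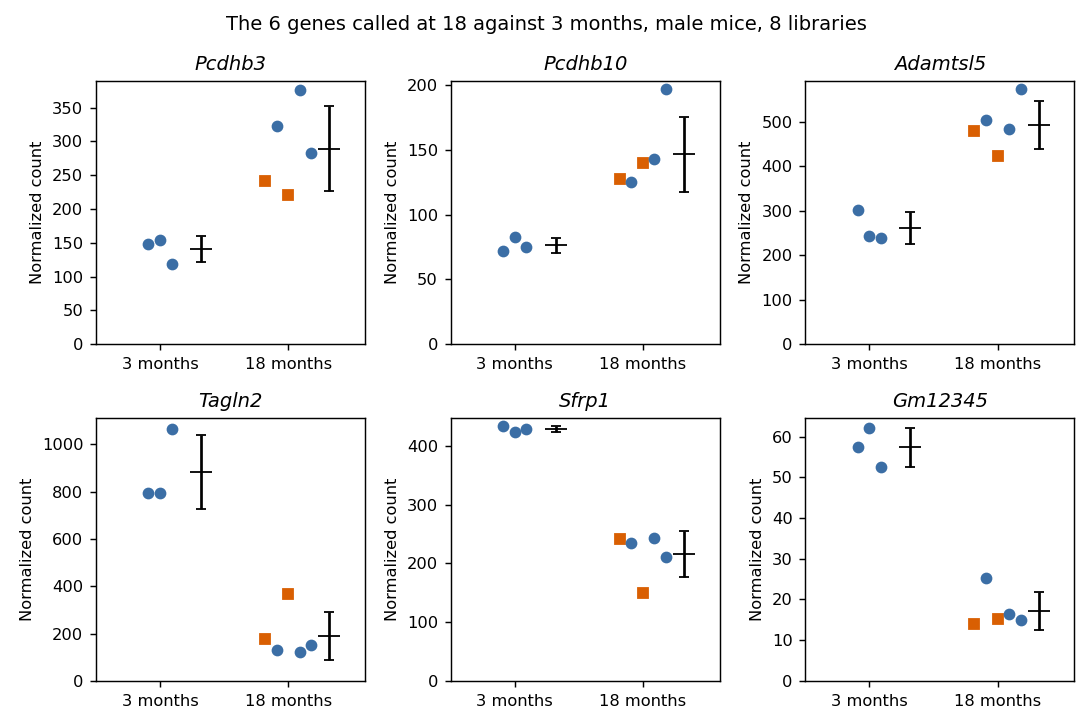
Normalized counts (vertical axes, from 0) of the 6 DEGs in the 3 libraries of 3 months and the 5 of 18 months, 1 point a library, with 18-month replicates 1 and 3 as orange squares and bars for the mean and SD. The groups do not overlap for any of the 6. The closest as a ratio is Adamtsl5, at most 302 at 3 months and at least 424 at 18 months.

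Tagln2, an actin-binding protein of the calponin family, had the widest difference. It lies on chromosome 1 of GRCm38 from 172500047 to 172507380. Its normalized counts were 794, 794 and 1064 at 3 months and 178, 132, 368, 122 and 150 at 18 months, a mean of 884 ± 156 (SD, n = 3) against 190 ± 102 (SD, n = 5). Replicate 3 was the highest of the old libraries and still far below the young ones. The log2 fold change was -2.23 (SE 0.36, adjusted p = 0.00751), and it was -2.71 (adjusted p = 0.00286) without replicates 1 and 3.

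Sfrp1, a secreted frizzled-related protein that binds Wnt ligands and keeps them from their receptors, lies on chromosome 8 from 23411502 to 23449632. Its counts were 434, 424 and 429 at 3 months, an unusually narrow spread, and 241, 235, 150, 243 and 211 at 18 months. All the old libraries were far below the young ones, and the log2 fold change was -0.99 (SE 0.17, adjusted p = 0.0103). Without replicates 1 and 3 it was -0.90 and the adjusted p rose to 0.0858.

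Gm12345 lies on chromosome 11 from 77149628 to 77150525 and is annotated as a processed pseudogene. Its counts were 57.5, 62.1 and 52.6 at 3 months and 13.9, 25.3, 15.3, 16.3 and 15.0 at 18 months, a log2 difference of -1.72 (SE 0.32, adjusted p = 0.0378). With the replicate number as a block the adjusted p was 0.0533, and without replicates 1 and 3 it was 0.209, with a log2 difference of -1.59. Its 898-base transcript matched transcripts of Usf1, a transcription factor that binds E-box motifs, with 98.2% identity over 899 aligned positions, so reads of the pseudogene and of Usf1 could have been split by the counting and the value is uncertain. Usf1 itself had 1710, 2228 and 1850 at 3 months and 1529, 1797, 1468, 2942 and 1374 at 18 months, with a log2 fold change of -0.08 (SE 0.22). The pseudogene and its near copy thus had different values, and the groups overlapped for Usf1, which was named after this match was seen.

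Pcdhb3 and Pcdhb10 belong to the beta cluster of protocadherins on chromosome 18, cell-surface adhesion proteins of which each neuron uses its own combination. Pcdhb3 had 149, 154 and 119 normalized counts at 3 months and 241, 323, 221, 376 and 283 at 18 months, a mean of 141 ± 19.1 (SD, n = 3) against 289 ± 62.7 (SD, n = 5). Its log2 fold change was 1.04 (SE 0.17, adjusted p = 0.00751). Pcdhb10 had 71.6, 82.8 and 74.7 at 3 months and 128, 125, 140, 143 and 197 at 18 months, and rose by 0.94 on the log2 scale (SE 0.15, adjusted p = 0.00751, or 0.0533 with the replicate number as a block). Both were DEGs without replicates 1 and 3 as well, with log2 fold changes of 1.22 and 1.02.

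Adamtsl5, a secreted protein of the ADAMTS-like family that lacks the protease domain, lies on chromosome 10 from 80339110 to 80348412. It had 302, 243 and 239 at 3 months and 479, 503, 424, 483 and 574 at 18 months, a rise of 0.91 on the log2 scale (SE 0.18, adjusted p = 0.0467, or 0.0714 with the replicate number as a block). Without replicates 1 and 3 the fold change was 0.99 and the adjusted p was 0.0858.

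How firmly the 6 genes were called depended on the libraries that shared the estimate of spread and on the young libraries. With only the 8 libraries of the comparison, or only the males, in the fit, none was a DEG (0 genes each, with 1083 and 1159 genes at an unadjusted p under 0.05), and without 3-month replicate 3 the count was also 0 (673 genes). Without 3-month replicate 2 it was 3, without 18-month replicates 1 and 3 together it was 3 or 0.0172% (Tagln2, Pcdhb3 and Pcdhb10), and with the replicate number as a block it was 3 or 0.0172% (Tagln2, Pcdhb3 and Sfrp1). Of the 8 fits that left out a library in turn, Tagln2 and Pcdhb3 were called in 7, Pcdhb10 in 6, Sfrp1 in 5, and Adamtsl5 and Gm12345 in 1. In the DESeq2 Wald test all 6 were among 39 DEGs, and in limma voom with sample quality weights all 6 were among 458 (2.62%), of which 305 were higher. All 6 kept their direction in every alternative.

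Near the threshold stood 3 genes at an adjusted p of 0.0503. Tap1, which pumps peptides into the endoplasmic reticulum for presentation on MHC class I, had 26.8, 20.7 and 22.9 at 3 months and 63.1, 44.5, 75.0, 60.2 and 70.5 at 18 months (log2 difference 1.41, SE 0.28). Stat6, the transcription factor of interleukin-4 signaling, had 235, 144 and 163 against 378, 315, 303, 267 and 448 (log2 fold change 0.92, SE 0.18), but its exons overlap those of Nab2 on the opposite strand and whether the counting used strand is not given in the sources used here. Cdk2ap1, a cyclin-dependent kinase 2 partner, had 1545, 1887 and 1955 against 1350, 1334, 1380, 1184 and 1340 (log2 fold change -0.45, SE 0.09). For all 3 the groups did not overlap.

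Further genes without overlap between the ages, a mean of at least 50 and the smallest p-values missed the threshold. Higher at 18 months were Tgm2, a protein-crosslinking transglutaminase (log2 fold change 1.24, SE 0.25, adjusted p = 0.0588, and 0.91, adjusted p = 0.37, without replicates 1 and 3), and Pdyn, the precursor of the dynorphin opioid peptides, which had 62.2, 76.3 and 57.7 at 3 months and 213, 279, 228, 280 and 123 at 18 months (log2 difference 1.78, SE 0.37, adjusted p = 0.0876). Ackr1, an atypical chemokine receptor, had 1452, 1403 and 1546 against 3171, 3228, 2623, 2567 and 2766 (log2 fold change 0.97, SE 0.23, adjusted p = 0.239), and it shares exonic sequence with Cadm3 on the same strand. Vps18, of the endolysosomal tethering complexes, Chd4, a chromatin remodeler, and Skiv2l, an RNA helicase of the exosome, had log2 fold changes of 0.40, 0.31 and 0.42, and Gm7694, which overlaps Nos1ap, had 0.98. Lower at 18 months were Vsig8 (log2 fold change -1.32, SE 0.34), the B-cell survival receptor Tnfrsf13c (-0.82, SE 0.22), 1700086L19Rik (-0.62, SE 0.15), Pyurf (-0.47, SE 0.12), Rom1 (-0.44, SE 0.12), B230217C12Rik (-0.41, SE 0.09) and Cacfd1 (-0.33, SE 0.09), with adjusted p-values between 0.161 and 0.304.

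The beta protocadherins were higher as a group. Of 22 genes in the cluster 21 were tested, 19 had a fold change above 0 (52% of all genes did), and 12 were higher with an unadjusted p under 0.05 while none was lower, beside 4.32% and 2.48% of all genes. The counts were again 12 and 0 without replicates 1 and 3, beside 4.1% and 3.11% of all genes. The median log2 fold change was 0.40 with all libraries and 0.44 without replicates 1 and 3, and the summed count was 2053, 2008 and 1959 at 3 months and 2817, 2833, 2439, 2999 and 2960 at 18 months. Every old library lay above every young one. After Pcdhb3 and Pcdhb10, Pcdhb8 had 89.0, 65.0 and 55.2 against 148, 148, 114, 93.9 and 193 (log2 fold change 1.00, SE 0.27, adjusted p = 0.304), and Pcdhb9 had 96.8, 77.2 and 115 against 170, 163, 134, 129 and 146 (0.62, SE 0.20, adjusted p = 0.418). Pcdhb20 was also without overlap, at 248 to 259 against 303 to 497, while Pcdhb16 (log2 fold change -0.21) and Pcdhb21 (-0.09) were the members below 0. These genes are much alike in sequence, and reads shared between members could have been split by the counting. In limma voom with sample quality weights 9 members were called, all higher, beside 1.74% of all genes.

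**Figure D3:**
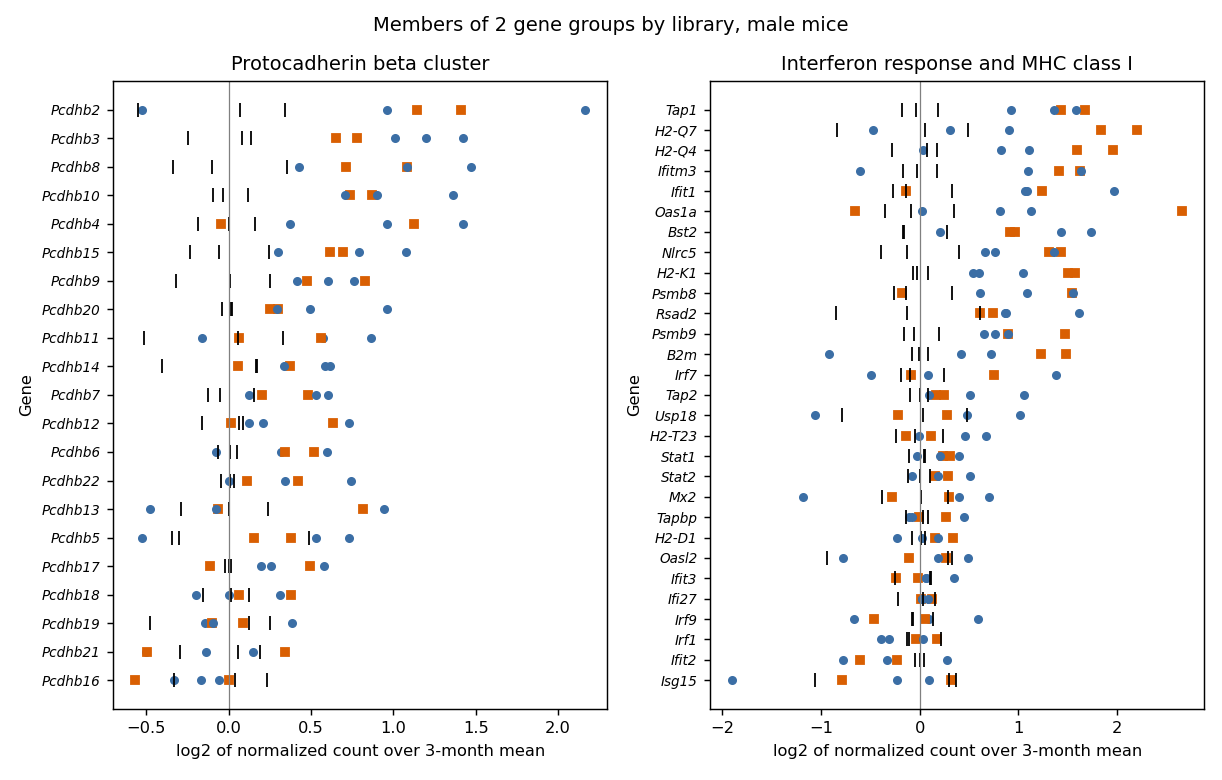
Log2 of the normalized count over the 3-month mean (horizontal axes) for each tested gene of the protocadherin beta cluster (left, 21 genes) and of the interferon response and MHC class I list (right, 29 genes), with black ticks for the 3-month libraries, blue circles for 18-month replicates 2, 4 and 5 and orange squares for replicates 1 and 3. Both groups lean to the right of 0, with medians of 0.40 and 0.46, and in B2m, H2-Q7 and H2-Q4 the orange squares lie to the right of the circles.

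In the Wnt pathway, which guides axon and synapse formation and is restrained by secreted antagonists, 60 genes were tested with a median log2 fold change of 0.06. Of its members 7 were higher and 2 lower with an unadjusted p under 0.05, beside 4.32% and 2.48% of all genes, and 2 were higher and 3 lower without replicates 1 and 3, beside 4.1% and 3.11%. The 2 lower genes with all libraries were Sfrp1 and Frzb. Frzb, like Sfrp1 a frizzled-related protein, had 534, 480 and 464 at 3 months and 383, 359, 248, 160 and 304 at 18 months (log2 difference -0.76, SE 0.21, adjusted p = 0.301). Among the ligands, Wnt3 had 63.0, 74.4 and 67.0 against 126, 130, 94.1, 153 and 77.6 (0.77, SE 0.21, adjusted p = 0.301), and Wnt10a had 104, 96.0 and 104 against 179, 209, 148, 149 and 176 (0.76, SE 0.22, adjusted p = 0.367). The antagonist Sfrp4 had 23.6, 12.2 and 19.5 against 70.7, 14.8, 57.2, 30.6 and 19.4, with replicates 1 and 3 on top (1.03, SE 0.44, or 0.21 without them). Wif1 was high in the libraries with bone RNA, at 93.4 in replicate 1 and 141 in replicate 3, and at most 6.12 in the other 6 libraries.

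Of the serotonin receptors, through which descending fibers set the excitability of motor neurons, 11 were tested and 8 had a fold change below 0, with a median of -0.30. Htr1b, an inhibitory receptor, had 189, 156 and 194 at 3 months and 101, 84.7, 107, 80.6 and 106 at 18 months. The groups did not overlap, but the log2 fold change of -0.91 (SE 0.21) had an adjusted p of 0.212, and the gene overlaps D430036J16Rik on the opposite strand. The excitatory receptors Htr2a and Htr7 had log2 fold changes of -0.31 (SE 0.19) and -0.32 (SE 0.19), and both were lowest in replicate 4, at 826 and 514. Ppp1r1c, an inhibitor subunit of protein phosphatase 1, had 157, 183 and 151 against 78.3, 91.7, 134, 112 and 90.8 (-0.69, SE 0.21, adjusted p = 0.4).

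The other receptors and channels gave medians near 0. For 25 glutamate receptor genes the median log2 fold change was 0.12, for 22 GABA and glycine receptor genes -0.03, for 12 acetylcholine receptor genes -0.02, for 26 sodium and calcium channel genes 0.04 and for 39 potassium channel genes 0.04, and none was a DEG. Gabrb1, a GABA-A receptor subunit, had 777, 699 and 739 against 856, 1027, 914, 1353 and 864 (0.44, SE 0.15, adjusted p = 0.49). In perineuronal nets, the matrix around motor neurons, the core proteoglycan aggrecan (Acan) had 443, 357 and 424 against 532, 675, 1011, 698 and 509 (0.75, SE 0.25, adjusted p = 0.471), and the link protein Hapln3 was lower (-0.43, SE 0.15, adjusted p = 0.539). Acan is also a gene of cartilage, and its highest value was in replicate 3.

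All 12 microglial markers were tested, all had a fold change above 0, 7 of them with an unadjusted p under 0.05 beside 4.32% of all genes, and 7 higher without overlap, beside 3.38%. The median was 2.00, or 2.37 without replicates 1 and 3. The summed count of the markers was 696, 612 and 680 at 3 months and 1059, 4176, 1104, 1152 and 1133 at 18 months. Replicate 2 thus held far more microglial RNA than the other old libraries, which in turn held more than the young ones. None of the 12 was a DEG.

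Complement, the cascade by which microglia tag synapses for removal, had 27 tested genes with a median log2 fold change of 0.63, of which 7 were higher and none lower at an unadjusted p under 0.05, beside 4.32% and 2.48% of all genes. Without replicates 1 and 3 the median was 0.41 and 6 were higher, beside 4.1%. The summed count of the list was 21766 to 25170 at 3 months and 18031 to 31795 at 18 months, with overlap. C1qa, a chain of the initiating complex, had 49.6, 47.1 and 41.6 at 3 months and 115, 941, 85.2, 219 and 82.9 at 18 months (2.66, SE 1.11, adjusted p = 0.647). C4b had 99.99, 80.0 and 75.5 at 3 months and 237, 324, 206, 282 and 291 at 18 months (1.65, SE 0.52, adjusted p = 0.404), with replicate 2 highest by a small margin. C3, the central component, had 43.3, 40.5 and 51.8 against 97.2, 124, 108, 81.6 and 105 (1.19, SE 0.54, adjusted p = 0.697). For these 3 genes no old library fell within the young range. The share of the complement values that belongs to microglia or to motor neurons was not tested.

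TREM1 signaling, a myeloid activation pathway, had 45 tested genes and a median of 0.53, with 14 higher and 1 lower at an unadjusted p under 0.05, beside 4.32% and 2.48% of all genes. Without replicates 1 and 3 the median was 0.30, with 7 higher and 1 lower, beside 4.1% and 3.11%. The summed count overlapped between the ages, at 17854 to 19473 and 19076 to 20323. Tlr2, a receptor for bacterial lipoproteins, had 13.4, 13.2 and 17.0 against 40.4, 50.7, 34.3, 25.5 and 51.1 (1.47, SE 0.41, adjusted p = 0.326). The chemokine gene Ccl3 had 0 counts in 2 young libraries and 0.849 in the third, and between 3.53 and 11.4 in the old ones. The adaptor Tyrobp had 7.09, 5.65 and 6.79 against 41.7, 97.8, 38.2, 17.3 and 18.5 (2.69, SE 1.12, adjusted p = 0.647).

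The interferon response and MHC class I list, which holds antigen presentation genes and antiviral effectors, had 29 tested genes, 25 with a fold change above 0, a median of 0.46, and 9 higher and none lower at an unadjusted p under 0.05, beside 4.32% and 2.48% of all genes. Without replicates 1 and 3 the median was 0.37 and 5 were higher, beside 4.1%. Besides Tap1, H2-K1, a classical class I heavy chain, had 229, 223 and 249 at 3 months and 693, 484, 664, 340 and 354 at 18 months (1.11, SE 0.34, adjusted p = 0.404), with replicates 1 and 3 on top. B2m, the light chain of class I, had 270, 285 and 302 against 669, 473, 801, 151 and 381. It was highest in replicates 1 and 3 and lowest in replicate 4, and its log2 fold change was 0.79 (SE 0.41) with all libraries and 0.23 without replicates 1 and 3. Tap2, the partner of Tap1, had 550, 580 and 513 against 652, 782, 613, 1137 and 583 (0.46, SE 0.19, adjusted p = 0.647). The antiviral gene Ifit1 had 10.2, 14.1 and 9.34 against 26.5, 23.6, 10.2, 43.9 and 23.8 (1.19, SE 0.42, adjusted p = 0.518), and H2-D1, another classical class I heavy chain, had 6514 to 7133 against 5871 to 8682 (0.11, SE 0.13).

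The 250 bases before the RefSeq start sites of the list's genes were searched on both strands for the core of the interferon-stimulated response element. The core is GAAA, 2 bases of any kind and GAAA again (on the other strand TTTC takes the place of GAAA). Of the 23 tested genes with a promoter in the table, 9 held it (39.1%), against 3.02% of the 12177 tested genes with a promoter. The list was made of interferon response genes, so this share describes the list and does not bear on the age difference. The windows of Ifit1 (chr19:34640639-34640888, plus strand) and B2m (chr2:122147437-122147686, plus strand) are shown because they hold it, in capitals, in GRCm38.p6, 5′ to 3′ along the gene. Tap1, H2-K1 and H2-D1 held no match to these letters in their windows, which says only that.
Ifit1: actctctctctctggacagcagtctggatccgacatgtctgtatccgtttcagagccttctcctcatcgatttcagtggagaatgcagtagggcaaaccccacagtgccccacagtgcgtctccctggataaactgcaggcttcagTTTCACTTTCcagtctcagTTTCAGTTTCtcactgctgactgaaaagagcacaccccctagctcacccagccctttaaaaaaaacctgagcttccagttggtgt
B2m: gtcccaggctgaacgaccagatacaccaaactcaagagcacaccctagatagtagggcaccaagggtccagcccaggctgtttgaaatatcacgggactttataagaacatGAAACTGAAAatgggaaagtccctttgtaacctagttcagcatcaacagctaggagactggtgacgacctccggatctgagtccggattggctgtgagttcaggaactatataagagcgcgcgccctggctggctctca

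Bone genes had some of the highest fitted fold changes of the comparison, and they were high in 18-month replicates 1 and 3. Of 15 osteoblast genes 11 were tested, all with a fold change above 0 (52% of all genes had one). Of these, 9 had an unadjusted p under 0.05, beside 4.32% of all genes that were higher. The median log2 fold change was 3.58, which became 0.25 without those libraries. None was a DEG. A gene can pass the filter on low counts through the libraries in which it is high. Counts and medians over the tested genes of this list, and of the collagen, osteoclast and marrow lists below, are therefore a description only. Bglap, osteocalcin, the abundant protein of osteoblasts, had no count in the 3 young libraries and 155, 0, 224, 0 and 0.882 at 18 months, and its close paralog Bglap2, with which it may share reads, had none in the young libraries and 117, 1.75, 150, 1.02 and 0. Ibsp, the bone sialoprotein, had 22.05, 21.7 and 17.0 at 3 months and 556, 44.5, 551, 40.8 and 30.9 at 18 months. It was without overlap between the ages even in the other 3 old libraries, yet its log2 fold change was 3.58 (SE 0.80, adjusted p = 0.161) with and 0.93 (adjusted p = 0.702) without replicates 1 and 3.

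Phex, a peptidase that controls mineralization, was 80.8 and 72.5 in replicates 1 and 3 and at most 6.12 elsewhere. Dmp1, a phosphoprotein of osteocytes, had 509, 512 and 572 at 3 months and 921, 540, 1098, 616 and 587 at 18 months, so that it was well above 0 in all 8 libraries (0.50, SE 0.16, adjusted p = 0.436). The transcription factors of the osteoblast lineage were low. Sp7 had 3.15, 4.71 and 0.849 at 3 months and 20.2, 9.61, 12.7, 3.06 and 5.29 at 18 months. Runx2 had 32.3, 25.4 and 37.3 against 44.2, 30.6, 77.6, 36.7 and 43.2 (0.54, SE 0.26). Alpl, alkaline phosphatase, had 72.4, 55.5 and 87.4 against 128, 46.3, 121, 15.3 and 83.8 (0.12, SE 0.41). For Sp7, Runx2 and Alpl, replicates 1 and 3 were above the 3 young libraries. The other 3 old libraries overlapped the young range for Runx2 and Alpl. For Sp7, replicate 4 lay within the young range and replicates 2 and 5 lay above it.

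Osteocalcin is the textbook target of RUNX factors, and the 250 bases before its RefSeq start site (chr3:88384467-88384716, minus strand, GRCm38.p6) are shown for the RUNX core, TGTGGT or ACCACA on the other strand, in capitals. This core was in the windows of 3 of 7 osteoblast genes with a promoter in the table (Bglap, Dmp1 and Runx2) and of 0 of 8 fibril-forming collagen genes. It was in those of 0 of 3 osteoclast genes and of 12.6% of the 12177 tested genes with a promoter. Another window of Dmp1 (chr5:104197325-104197574, plus strand) held no match. Genes of these lists could pass the filter through replicates 1 and 3, so the shares describe the lists and do not bear on the age difference.
Bglap: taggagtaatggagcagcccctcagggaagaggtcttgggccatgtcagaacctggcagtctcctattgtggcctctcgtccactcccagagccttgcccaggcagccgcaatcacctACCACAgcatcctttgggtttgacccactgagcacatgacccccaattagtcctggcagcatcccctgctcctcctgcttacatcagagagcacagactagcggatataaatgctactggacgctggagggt

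Fibril-forming collagens, the scaffold of bone, cartilage and connective tissue, followed the same pair of libraries. All 11 genes were tested and all had a fold change above 0 (52% of all genes did), 6 with an unadjusted p under 0.05, beside 4.32% of all genes. The median of 1.36 became 0.13 without replicates 1 and 3. Col1a1 had 38.6, 23.5 and 33.9 at 3 months and 4137, 35.8, 5767, 60.2 and 5.29 at 18 months, and its log2 fold change of 5.95 (SE 1.58, adjusted p = 0.291) became 0.06. Col1a2 had 71.6, 52.7 and 65.4 against 7491, 75.1, 9815, 130 and 22.9, and 5.78 (SE 1.54) became 0.25. The 3 old libraries without bone RNA lay on both sides of the young ones.

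Other fibril-forming collagens were high in the same pair of libraries. Col5a2 was 279 and 304 in replicates 1 and 3 and at most 9.34 elsewhere, Col11a1 was 221 and 251 against at most 28.2, Col5a1 was 110 and 104 against at most 39.7, and the cartilage collagen Col2a1 was 172 and 158 against at most 14.3. Col27a1 was without overlap between the ages, with 26.0, 24.5 and 17.0 against 55.6, 34.1, 36.9, 55.1 and 33.5 (0.93, SE 0.49, adjusted p = 0.792). Col11a2, Col24a1 and Col5a3 had log2 fold changes of 0.87, 0.63 and 0.33. Col3a1, the collagen of soft connective tissue and meninges, had 59.1, 18.8 and 39.9 against 138, 13.1, 108, 12.2 and 2.65, and its log2 fold change of 0.44 (SE 0.99) became -2.07 without replicates 1 and 3.

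Of the other collagens 25 genes were tested, with a median of 0.25 that became 0.06. At an unadjusted p under 0.05, 4 were higher and 1 lower, beside 4.32% and 2.48% of all genes. Col12a1 and Col6a1, which bind to fibrils or form microfibrils, were highest in replicates 1 and 3, with log2 fold changes of 0.78 and 1.77 that became 0.23 and -0.31, and the basement membrane gene Col4a1 went from 1.27 to -0.06. Col6a4 was the member with the lowest fold change, -1.03 (SE 0.38, adjusted p = 0.574). Of 23 tested collagen processing genes 15 had a fold change above 0 and 8 below. At an unadjusted p under 0.05, 7 were higher and none lower, beside 4.32% and 2.48% of all genes (none either way without replicates 1 and 3). The median of 0.23 became 0.02. The crosslinking oxidase Lox was 182 and 193 in replicates 1 and 3 and at most 4.08 elsewhere, and the chaperone Serpinh1 was 338 and 420 against at most 22.1. Sparc, a collagen-binding glycoprotein also made by glia, had 1046, 946 and 924 against 4156, 3201, 5079, 1493 and 1302 and was higher in all 5 old libraries (1.65, SE 0.69, adjusted p = 0.647).

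**Figure D4:**
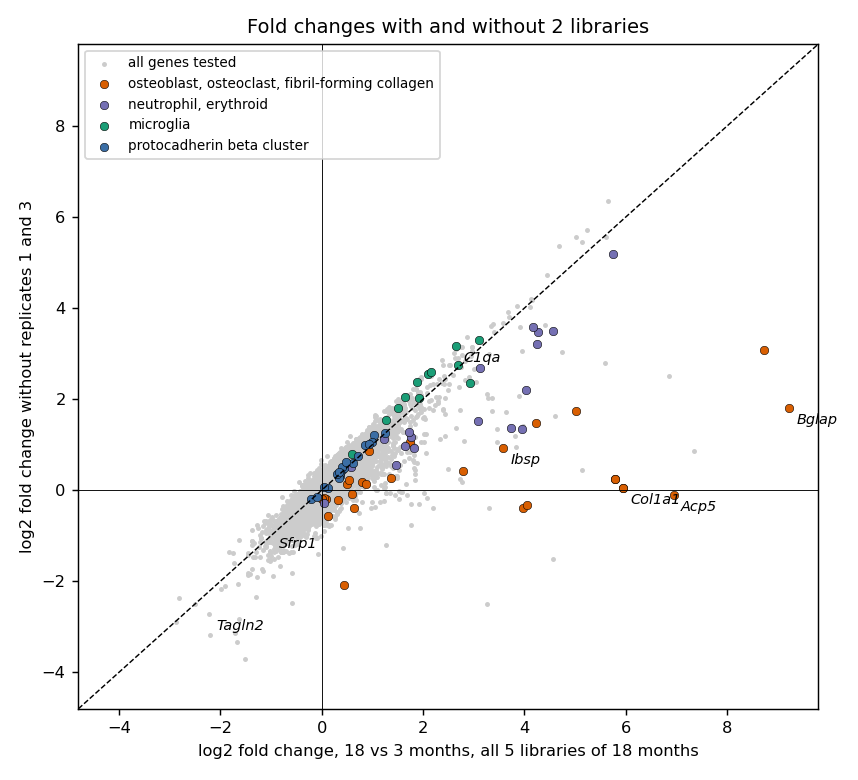
Log2 fold change of 18 against 3 months with all 5 old libraries (horizontal axis) and without replicates 1 and 3 (vertical axis), 1 point a gene, for 17481 genes in grey with marker lists in color and a dashed line of equality. Col1a1 (5.95 and 0.06) and Acp5 (6.95 and -0.09) drop to the zero line, other bone and collagen genes lie between it and the line of equality or below 0 (Ibsp at 0.93, Col2a1 at 1.49, Col3a1 at -2.07), while the beta protocadherins, the microglial genes and Tagln2 stay near the line of equality, and the value of Bglap rests on a young group without counts.

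Some markers of osteoclasts and marrow were high in the same libraries. Of 9 osteoclast genes 6 were tested, 2 of them higher with an unadjusted p under 0.05, beside 4.32% of all genes. The median log2 fold change of 0.69 became -0.13 without replicates 1 and 3. The summed count of the list was 2309, 1711 and 2398 at 3 months and 3592, 1884, 4474, 928 and 2922 at 18 months. Acp5, the acid phosphatase that defines osteoclasts, was 616 and 689 in replicates 1 and 3 and at most 3.39 in the others, so that its value of 6.95 on the log2 scale (SE 1.73, adjusted p = 0.239) became -0.09. Ctsk, the collagenase of osteoclasts, was 735 and 725 against at most 26.4. The 11 tested neutrophil genes had a median of 4.03, or 2.68 without replicates 1 and 3, and replicate 4 also held them: S100a8 had 7.09, 11.3 and 6.79 at 3 months and 359, 56.8, 361, 230 and 1.76 at 18 months. The granule enzyme Mpo, made by marrow precursors, was 109 in both replicates 1 and 3 and 18.4 in replicate 4. The summed count of B and plasma cell markers was 1586 and 2632 in replicates 1 and 3, against 2224 to 2633 at 3 months. Hemoglobin Hba-a1 was 814, 1137 and 997 in replicates 1, 3 and 4 and between 129 and 267 in the other 5 libraries, and the 7 erythroid genes had a median of 1.72. Replicate 4 thus carried blood genes without osteocalcin, and replicate 5 carried neither.

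Elsewhere in the series the osteoblast sum of the other 23 libraries in the fit reached at most 2548, in 24-month male replicate 2, and Bglap reached 38.1 at 24 months in males and 1.48 at 18 months in females. The bone RNA of these old males was therefore not seen at that level in any other group. How it came into the libraries was not tested.

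Genes of axon injury did not separate the ages as a list, with a median of 0.12 over 30 genes. Atf3, the transcription factor induced by axotomy, had 29.9, 19.8 and 33.9 at 3 months and 79.6, 119, 80.1, 140 and 53.8 at 18 months. The groups did not overlap, but the log2 fold change of 1.75 (SE 0.85) had an adjusted p of 0.734. Sprr1a had 24.4, 20.7 and 31.4 against 36.6, 141, 33.1, 224 and 56.4 (1.95, SE 1.25), and Npy, neuropeptide Y, had 15.7, 12.2 and 20.4 against 22.7, 67.2, 40.7, 132 and 30.0 (1.86, SE 1.16). Replicates 2 and 4 were the highest for all 3 genes. Jun, another early factor of the injury response, was lower, with 4678, 4335 and 4244 against 3427, 3446, 3125, 3853 and 3507 (-0.35, SE 0.12, adjusted p = 0.472).

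Of 17 genes of cell cycle arrest and senescence 3 were higher with an unadjusted p under 0.05 and none lower, beside 4.32% and 2.48% of all genes, and 1 was higher without replicates 1 and 3, beside 4.1%. Cdkn2a, which encodes proteins that stop the cell cycle, had 19.7, 30.1 and 31.4 at 3 months and 87.1, 153, 102, 455 and 117 at 18 months. The groups did not overlap, and replicate 4 was far above the rest (2.76, SE 0.78, adjusted p = 0.333). Plaur, the urokinase receptor, was highest in replicates 1 and 3, and its log2 fold change of 2.73 became 0.24 without them. Outside this list, the lysosomal membrane protein Cd63 had 345, 374 and 410 against 590, 746, 519, 1011 and 387 (0.79, SE 0.36, adjusted p = 0.692), the protease inhibitor Serpinb1a had 59.8, 59.3 and 94.2 against 96.0, 213, 96.7, 175 and 96.1 (0.93, SE 0.55), and the filament gene Vim had 173, 118 and 138 against 806, 279, 673, 128 and 178, with replicates 1 and 3 on top (1.52, SE 0.54, or 0.45 without them).

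The 74 nuclear genes of the respiratory chain had a median of -0.02 and none with an unadjusted p under 0.05. The 10 genes of mitochondrial DNA had a median of -0.31, with 9 below 0 and none with an unadjusted p under 0.05. All 10 were below 0 without replicates 1 and 3, with a median of -0.64 and 1 with an unadjusted p under 0.05, beside 3.11% of all genes. Their summed count ranged from 26248 to 46113 at 3 months. At 18 months it was 26828, 16221, 58111, 17113 and 32301, so that only replicates 2 and 4 lay below the young range. Among 30 antioxidant genes the median was -0.03 and 2 were lower with an unadjusted p under 0.05, beside 2.48% of all genes, namely the mitochondrial enzymes Sod2 (-0.18, SE 0.08) and Prdx3 (-0.21, SE 0.09). Heat shock and unfolded protein response genes (28) had a median of -0.02, and cholesterol synthesis genes (23) had 0.06.

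In females, whose libraries are separate animals, all 6 DEGs of the males had the same direction between 3 and 18 months (4 and 5 libraries). None was called there, where 2 genes or 0.0114% were (Htr1b, which fell by 1.22, adjusted p = 0.0276, and the dynein heavy chain gene Dync1h1, which rose by 0.79, adjusted p = 0.0309, with 0.53 in males, adjusted p = 0.363), and all 6 had an unadjusted p under 0.05, which 8.88% of genes had. The female log2 fold change was -1.50 (SE 0.34, adjusted p = 0.106) for Tagln2, -0.57 (SE 0.16, adjusted p = 0.199) for Sfrp1, -0.76 (SE 0.30, adjusted p = 0.45) for Gm12345, 0.82 (SE 0.15, adjusted p = 0.053) for Pcdhb3, 0.68 (SE 0.14, adjusted p = 0.0786) for Pcdhb10 and 0.79 (SE 0.16, adjusted p = 0.0786) for Adamtsl5. Of the 21 beta protocadherins 19 were higher in females too, 10 with an unadjusted p under 0.05 beside 4.85% of all genes, with a median of 0.53. Osteoblast genes in females had a median of -0.04 and fibril-forming collagens -0.64, while microglial genes had 0.89 and interferon and MHC class I genes 0.19.

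The difference between the sexes was tested directly, as an interaction, and no gene was called by edgeR (0 of 17481, 226 with an unadjusted p under 0.05 or 1.29%). The DESeq2 Wald test called 2 genes, Col1a1 and Thbs1, and limma voom called 0. Thbs1, a matrix glycoprotein, was 236 and 238 in 18-month male replicates 1 and 3 and at most 18.4 in the other 6 libraries. For the 6 DEGs the male change minus the female change was between -0.97 (Gm12345) and 0.26 (Pcdhb10), each with an adjusted p of 1.00.

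**Figure D5:**
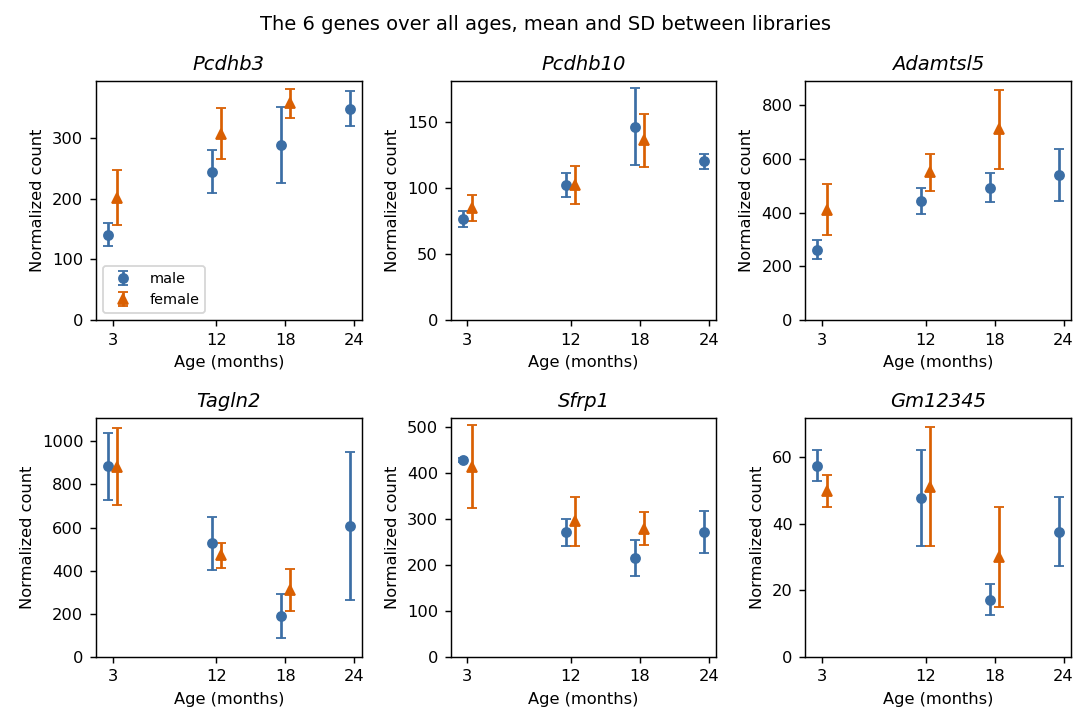
Mean normalized count and SD between libraries (vertical axes, from 0) of the 6 DEGs by age in months, for males (blue circles, 3, 4, 5 and 5 libraries) and females (orange triangles, 4, 5 and 5 libraries). Tagln2 and Gm12345 were lowest at 18 months in males, at 190 and 17.2, and higher again at 24 months, at 606 and 37.6.

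Against the 24-month males no gene was called by edgeR (0 of 17481, 571 with an unadjusted p under 0.05 or 3.27%), while the DESeq2 Wald test called 5 and limma voom 1. Tagln2 ranged from 180 to 1109 in the 5 libraries of 24 months, a mean of 606 ± 343 (SD, n = 5) against 190 ± 102 (SD, n = 5) at 18 months, and the log2 difference from 18 to 24 months was 1.68 (SE 0.33, adjusted p = 0.2). Gm12345 had 37.6 ± 10.5 (SD, n = 5) at 24 months (1.10, SE 0.30, adjusted p = 0.89). The other 4 DEGs were nearer to their 18-month level, with log2 fold changes from 18 to 24 months of 0.33 for Sfrp1, 0.27 for Pcdhb3, -0.29 for Pcdhb10 and 0.13 for Adamtsl5. At 12 months in males Tagln2 had 527 ± 123 and Pcdhb3 245 ± 35.9 (SD, n = 4), between the 3- and 18-month means for both genes. The 12- and 24-month values are set beside the same young libraries and are not independent of the comparison. The changes from 18 to 24 months use the 18-month libraries by which these genes were called. A return toward the young level at 24 months can follow from that choice alone.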

How the data were processed

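RNA bound to HA-tagged ribosomes of male and female mice was counted per gene, and the authors deposited raw counts without normalization. Per the study's methods, reads were trimmed with ea-utils and Btrim, aligned with HiSat2 and counted with HTSeq; the labels name GRCm38.93 as the annotation, and versions and strandedness are not given in the sources used here. Reads lost to strand or to shared sequence would lower counts of overlapping and paralogous genes.

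Symbols and coordinates came from GENCODE M21 (GRCm38) by Ensembl identifier, and 54165 of 54232 identifiers had a symbol. Counts were analysed in R 4.3.3 with edgeR 4.0.16 (TMM, glmQLFit, glmQLFTest, two-sided), limma 3.58.1 and DESeq2 1.42.0. In 1 fit, 31 libraries of 7 groups shared the estimate of spread (24 residual degrees of freedom). The single 24-month female library was left out. Filter, threshold and prior count were a mean count of 5, an adjusted p of 0.05 and 0.125. Per the study's methods n is 1 animal, so p-values measure the spread between animals and their libraries together. No 2 libraries of a group agreed within sampling noise (mean chi-square per gene between 7.35 and 193). Total counts were 23288612 to 27359621 at 3 months and 16873517 to 25079830 at 18 months, and intervals between libraries include animal differences while values near 0 are limited by counting error (floor of 3 counts in a library).

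The main model had no replicate block. Replicate numbers come from the labels, which name no pairing of animals across ages, and the study's methods describe none. Libraries of the same number had deviations from their group means that correlated at 0.296, 0.137 and 0.168. Pairs of other numbers ran from -0.632 to 0.719, so the same numbers did not stand out as pairs. The block is an alternative fit only, and blocked values are printed where they change a call.

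The comparison, its gene lists (21 of cell types and 24 of gene groups) and the rule for named genes were chosen with earlier results of these data known. Named genes were all DEGs, the 12 higher and 12 lower genes with the smallest p among those with a symbol, a mean count of at least 50 and no overlap between the ages, genes that the study names for these libraries, at most 4 members of each list with the smallest p and its members of highest level, and all osteoblast, collagen and cholinergic motor neuron genes. Some genes that this rule names are not reported here. Other genes were named after their values were seen. Promoter windows were the 250 bases before RefSeq start sites (GRCm38.p6); Gm12345 was aligned to GENCODE M21 transcripts with blastn. The main age comparison in males was tested on simulated data before use. This was not done for every other statistic, such as the sex difference, the replicate block and the list and motif counts.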

Additional observations from a re-analysis of the deposited data

Results flagged for a closer look

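In groups of 5 libraries a value was singled out when its gap to the nearest other library took more than 0.71 of the range of the group (Dixon's test). Of 55 values examined at 18 months 8 were singled out, and chance alone singles out about 1 in 20. Tagln2 was 368 in replicate 3 against 122 to 178 in the other 4 libraries, Pcdhb10 was 197 in replicate 5 against 125 to 143, and Gm12345 was 25.3 in replicate 2 against 13.9 to 16.3. Vps18 was 2270 in replicate 5 against 1745 to 1865, Cdk2ap1 was 1184 in replicate 4 against 1334 to 1380, and 1700086L19Rik was 45.0 in replicate 5 against 59.8 to 63.8. C1qa was 941 in replicate 2 against 82.9 to 219, and the summed count of the 12 microglial markers was 4176 in replicate 2 against 1059 to 1152.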

How the results depend on the processing

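The count of DEGs between 3 and 18 months (6) moved with the tool, with the libraries that shared the spread and with the young libraries. It was 39 with the DESeq2 Wald test (31 higher), 458 with limma voom and sample quality weights (305 higher), 0 with only the groups compared, 0 with only the males, 1 in the higher range of library totals and 3 without 18-month replicates 1 and 3. Leaving out each library in turn gave 0 to 7, with 0 without 3-month replicate 3 and 3 without 3-month replicate 2. With DESeq2 size factors it was 8, of which 5 were higher. With the replicate number as a block (pairing by number) it was 3, and the block left the call of Adamtsl5, Pcdhb10 and Gm12345 short of the threshold. For the difference between the sexes (0) the DESeq2 Wald test gave 2, and leaving out each library gave 0 throughout. For 24 against 18 months (0) the DESeq2 Wald test gave 5, limma voom 1, and leaving out each library 0 to 1, with 1 gene without 18-month replicate 3 or without 24-month replicate 3. Omission of female and 24-month libraries was chosen after seeing the data. Acp5 turned from 6.95 to -0.090 in the higher range of totals and to -0.095 without replicates 1 and 3. Over 46 genes and their alternatives, 896 of 1001 values counted as the same, 46 lost and 57 gained the call, and 2 changed sign. For genes with an unadjusted p under 0.05 in the main fit, the same meant direction and side of the threshold. For the other genes it meant a shift of at most 1 SE. The causes were not tested. The sex difference could not be computed with only males or within the higher range of totals, where no female library of 3 months lies. With 3 young animals, changes of several times their SE could miss the threshold, as Pdyn did in edgeR (1.78, SE 0.37, adjusted p = 0.0876). A gene that was not called is therefore not shown to be unchanged.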
